A study of Mus musculus with 8 samples.

Results

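The 10 CC chemokine genes Ccl17, Ccl22, Ccl5, Ccl2, Ccl7, Ccl12, Ccl3, Ccl4, Ccl6 and Ccl9 were followed through 8 RNA-seq libraries of mouse dendritic cells. They were taken by symbol from a table of 23420 genes, and all 10 passed the filter on low counts that left 12442 genes. Of the 10 genes, 3 encode T cell-attracting ligands (Ccl17, Ccl22, Ccl5), 5 inflammatory ligands (Ccl2, Ccl7, Ccl12, Ccl3, Ccl4) and 2 ligands that myeloid cells make constitutively (Ccl6, Ccl9). The cells carried a knock-out of Gata1 (KO) or were wild type (WT), and were given LPS, a bacterial cell wall component, or left at steady state. Each of the 4 groups, KO with LPS, WT with LPS, KO at steady state and WT at steady state, had 2 libraries. The labels give neither the tissue or culture the cells came from, the allele or Cre behind the knock-out, the age of the mice, nor the dose and length of LPS treatment. The libraries are described as biological replicates, but nothing says that they came from separate animals or cultures, so p-values measure the spread between these libraries, part of which may be technical.

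CC chemokines are small secreted proteins that guide leukocytes along gradients by binding G protein-coupled receptors, most of them named Ccr. Ccl17 and Ccl22 bind Ccr4 on T cells and help a dendritic cell hold T cells around it, while Ccl2, Ccl7 and Ccl12 call Ccr2-bearing monocytes into inflamed tissue. Ccl3, Ccl4 and Ccl5 draw in T cells, monocytes and other leukocytes at sites of inflammation.

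Total counts ranged from 8005151 to 15495249 per library. The targeted gene checked the labels only weakly, since Gata1 had 0 reads in all 4 KO libraries, 0 and 1 reads in WT with LPS and 1 and 10 reads in WT at steady state. Libraries of a group differed far more with LPS than at steady state, with a median SD of log2 CPM (a gene's count scaled to its library's TMM-adjusted total) over genes of 0.355 in KO with LPS, 0.463 in WT with LPS, 0.111 in KO at steady state and 0.196 in WT at steady state. Of 12 dendritic cell identity genes, all were detected in each of the 4 steady-state libraries, and their summed level was 20460.3 and 19340.3 CPM in KO and 27525 and 14736 CPM in WT. With LPS the sum was 5032 and 9956 CPM in KO and 17276 and 11394 CPM in WT. Most of the sum in each library came from the class II histocompatibility genes Cd74, H2-Aa and H2-Ab1, so it says little on the other genes listed. Of the 12 genes, Cd209a, a lectin gene of dendritic cells, had 0 reads in both KO libraries and in 1 WT library with LPS. In bulk RNA, fewer cells of a type and less RNA per cell cannot be told apart.

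All 10 genes lie in 2 clusters of the mouse genome (GRCm38, mm10; GENCODE M21 spans). Ccl22 (chr8:94745590-94751699) and Ccl17 (chr8:94810453-94812036) stand 58.8 kb apart on chromosome 8. The other 8 are on chromosome 11, where Ccl2 (chr11:82035571-82037453), Ccl7 (chr11:82045712-82047525) and Ccl12 (chr11:82101845-82103400) form one block. The other block holds Ccl5 (chr11:83525778-83530518), Ccl9 (chr11:83572919-83578636), Ccl6 (chr11:83587882-83593087), Ccl3 (chr11:83647844-83649355) and Ccl4 (chr11:83662584-83664683). RefSeq's Ccl4 span starts inside Ccl3 on the opposite strand, and the library kit does not mark strand, so the split of reads between Ccl3 and Ccl4 is uncertain. Of the 50-base windows in the transcripts of each gene, 0 were found in another gene's transcripts for 9 members and 1.97% for Ccl9.

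The upstream sequence of the 2 genes of chromosome 8 and of the neighbours Ccl6 and Ccl9 is shown because the genes of each pair lie close together and have 1 role, so that their windows can be set against their levels. RefSeq's promoter table (GRCm38.p6) held 6 of the 10 genes. Each line runs 5′ to 3′ on the gene's strand and ends at the base before the start in that table. The exception is Ccl22, which ends before its earlier GENCODE start. RefSeq's whole Ccl17 span begins at base 94809380, so the Ccl17 line, before the later start at 94810453, lies inside that span. Capitals in Ccl22 mark matches to the NF-kB motif GGGNNNNNCC, all on the opposite strand. Capitals in Ccl17 mark a match to the STAT6 motif TTCNNNNGAA. In Ccl6 and Ccl9 they mark the longest run of letters the pair share. The windows are chr8:94745434-94745589 (plus strand), chr8:94810203-94810452 (plus strand), chr11:83593088-83593337 (minus strand) and chr11:83578637-83578886 (minus strand).
Ccl22: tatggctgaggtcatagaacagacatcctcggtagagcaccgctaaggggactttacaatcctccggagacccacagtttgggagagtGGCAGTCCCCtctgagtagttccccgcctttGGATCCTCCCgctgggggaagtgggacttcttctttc
Ccl17: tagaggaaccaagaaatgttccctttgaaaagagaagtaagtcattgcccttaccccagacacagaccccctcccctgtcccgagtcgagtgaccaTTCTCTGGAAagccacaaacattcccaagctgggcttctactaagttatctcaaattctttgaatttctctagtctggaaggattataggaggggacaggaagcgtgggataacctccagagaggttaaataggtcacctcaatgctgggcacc
Ccl6: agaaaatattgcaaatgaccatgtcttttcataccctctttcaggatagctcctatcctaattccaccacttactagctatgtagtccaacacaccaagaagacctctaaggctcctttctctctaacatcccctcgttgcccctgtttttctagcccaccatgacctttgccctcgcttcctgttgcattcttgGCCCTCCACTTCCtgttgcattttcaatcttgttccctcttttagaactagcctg
Ccl9: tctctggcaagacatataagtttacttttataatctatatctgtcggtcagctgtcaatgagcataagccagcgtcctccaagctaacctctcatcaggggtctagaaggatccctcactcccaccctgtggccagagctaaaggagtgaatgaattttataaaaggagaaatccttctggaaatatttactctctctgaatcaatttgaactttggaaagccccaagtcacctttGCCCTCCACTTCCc

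Both strands of the 250 bases before the start were searched for 4 motifs, also in the windows of Ccl3 and Ccl12. Positions count back from the start in RefSeq's promoter table, which for Ccl22 (base 94745684) lies beyond the end of the printed line. The NF-kB motif matched in Ccl22, at bases -162 to -153 and -131 to -122, and in Ccl9 at -35 to -26, each on the opposite strand. Of 32851 promoter windows, 45.8% held at least 1 match. The STAT6 motif matched in Ccl17 at -154 to -145, against 5.85% of windows. The AP-1 motif TGANTCA matched in Ccl9 at -53 to -47, against 6.75% of windows, and no 2 of these matches overlapped. The interferon-response motif GAAANNGAAA, held by 2.98% of windows, matched in none of the 6. Ccl3, Ccl12 and Ccl6 held none of these letters in their windows. The 13 bases GCCCTCCACTTCC, shared by Ccl6 at -55 to -43 and Ccl9 at -14 to -2, occurred in 5 of 32851 windows (0.0152%), these 2 included. The run was picked as the longest the pair share, so its rarity is no test of the sharing. In the other pairs of the 6 windows the longest shared run had 6 to 10 bases. A match of letters is a description and says nothing on whether a factor binds.

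The 10 genes together took 1.28% and 1.81% of all reads in KO with LPS, 2.89% and 2.68% in WT with LPS, 1.11% and 1.10% in KO at steady state and 1.21% and 1.63% in WT at steady state. The Wilson 95% interval was 1.27% to 1.29% for the first KO library with LPS and 1.62% to 1.64% for the second WT library at steady state, and it covers counting error only. Ccl5 alone made up 81.0% and 95.9% of these reads in KO with LPS and 79.4% and 51.7% in WT with LPS, against 22.2% and 22.5% in KO and 23.1% and 21.6% in WT at steady state. Ccl22 supplied 12.2% and 1.45% in KO with LPS and 12.5% and 45.1% in WT with LPS, against 40.0% and 46.1% in KO and 38.8% and 53.0% in WT at steady state. The 4 steady-state libraries thus had a like make-up, led by Ccl22, while the 4 LPS libraries were led by Ccl5 and differed among themselves in Ccl22.

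**Figure D1:**
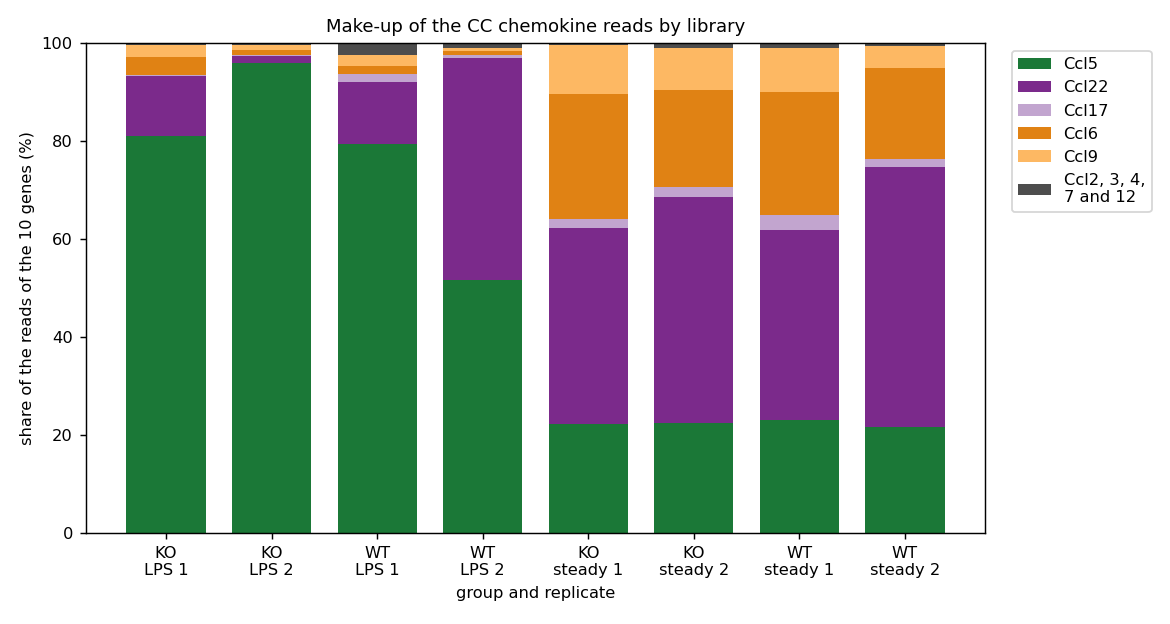
Share of each gene in the reads of the 10 CC chemokine genes (y axis, percent), with 1 stacked bar for each of the 8 libraries (x axis, group and replicate). Ccl5 reaches 95.9% in the second KO library with LPS and 51.7% in the second WT library with LPS, and lies between 21.6% and 23.1% at steady state.

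Levels of different genes were compared as CPM per kilobase of exon. With LPS in KO, Ccl5 led at 16471 ± 7966 CPM per kb (SD, n = 2), followed by Ccl22 at 407 ± 380 and Ccl6 at 197 ± 91.5, whose libraries overlapped. Ccl9 (87.2 ± 14.4), Ccl3 (79.0 ± 10.1) and Ccl17 (60.7 ± 16.4) came next and overlapped from neighbour to neighbour, and Ccl4 (16.5 ± 1.29), Ccl2 (8.36 ± 6.06), Ccl7 (1.15 ± 1.62) and Ccl12 (0.143 ± 0.202) were lowest, with overlap between the last pair only. With LPS in WT the order was Ccl5 (20359.6 ± 9203 CPM per kb), Ccl22 (3363 ± 2288), Ccl17 (742 ± 521), Ccl2 (279 ± 229), Ccl3 (212 ± 133), Ccl6 (202 ± 125), Ccl9 (145 ± 128), Ccl7 (38.6 ± 29.5), Ccl4 (37.3 ± 7.03) and Ccl12 (0.288 ± 0.407). There each neighbour from Ccl17 down to Ccl4 overlapped the next. Ccl17 was thus in the sixth place per length in KO with LPS and in the third place in WT with LPS, while Ccl5 and Ccl22 held the first places in both.

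At steady state the order per length was almost the same in both genotypes. In KO it was Ccl5 (2369.5 ± 83.0 CPM per kb), Ccl22 (1881 ± 105), Ccl6 (1289.8 ± 285), Ccl17 (389.6 ± 9.82) and Ccl9 (308 ± 46.8), with no overlap between neighbours. Ccl3 (34.4 ± 3.30), Ccl2 (31.6 ± 27.7), Ccl4 (11.5 ± 5.33), Ccl7 (10.6 ± 9.90) and Ccl12 (2.43 ± 2.62) followed, each overlapping the next. In WT it was Ccl5 (3091 ± 456 CPM per kb) and Ccl22 (2694 ± 1093), which overlapped, then Ccl6 (1583 ± 36.8), Ccl17 (603 ± 109.5) and Ccl9 (282 ± 75.4), which did not. Ccl2 (48.4 ± 12.6) and Ccl3 (41.4 ± 6.75) overlapped, as did Ccl4 (21.7 ± 7.23) and Ccl7 (17.9 ± 6.71), and Ccl12 (1.47 ± 1.49) was last. T cell-attracting and constitutive genes therefore stood above the 5 inflammatory genes in all 4 steady-state libraries.

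**Figure D2:**
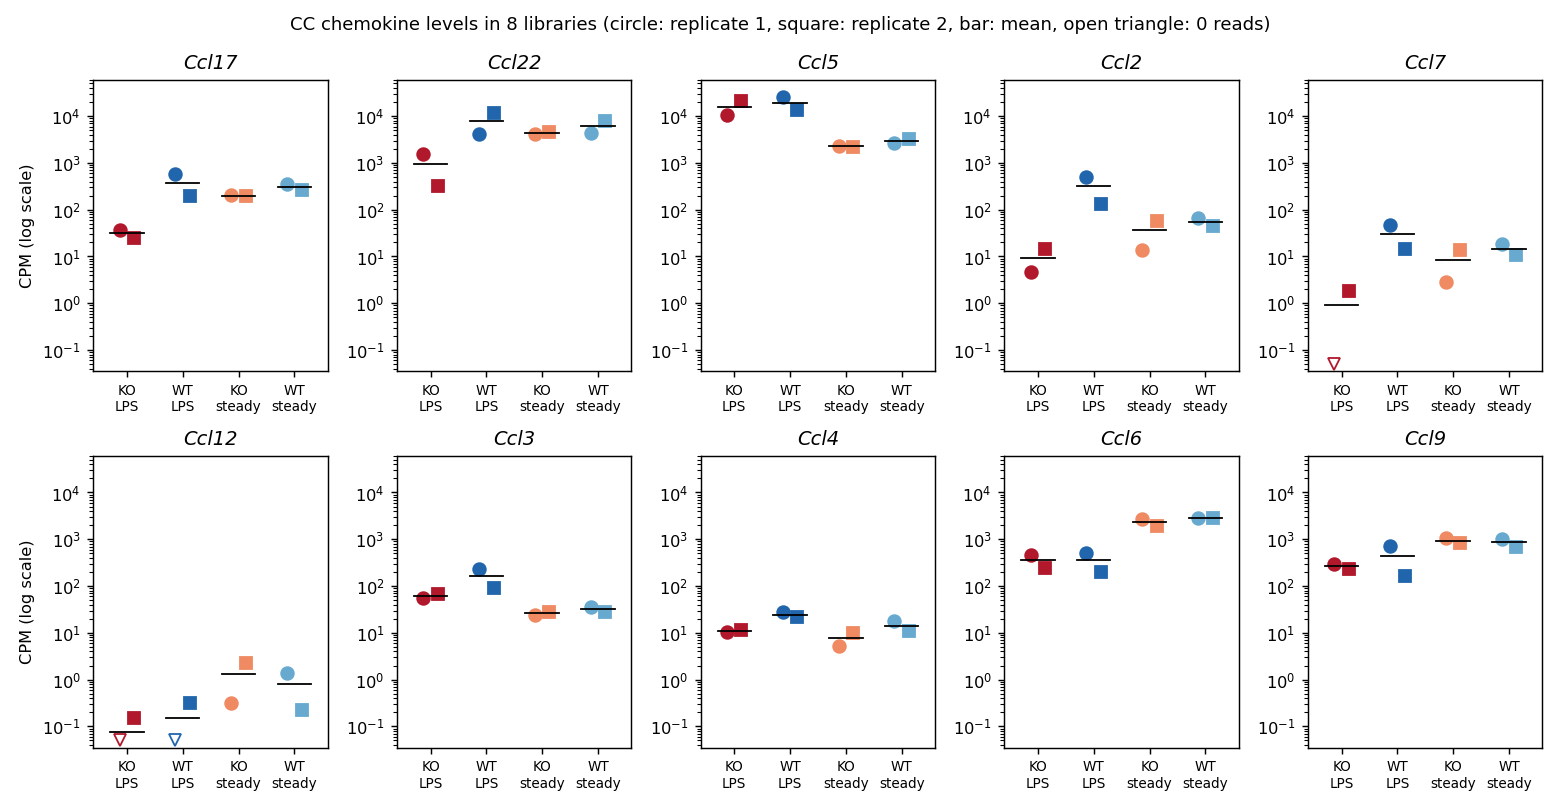
Level of each CC chemokine gene in CPM on a log axis (y) in the 4 groups (x). Circles are replicate 1, squares replicate 2, bars the mean of the 2 libraries and open triangles libraries with 0 reads. Ccl17 lies at 37.2 and 25.3 CPM in KO with LPS, against 570.5 and 192 CPM in WT with LPS, and Ccl5 lies between 10405 and 25792 CPM with LPS and between 2218 and 3277 CPM at steady state.

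Among LPS-treated cells, Ccl17 was the one CC chemokine called between genotypes, with a 12.2-fold lower level in KO. Of all genes tested, the quasi-likelihood test of edgeR (Benjamini-Hochberg adjusted) called 0.281% higher and 0.49% lower in KO at an adjusted p under 0.05, against 0 of 10 members higher and 1 of 10 lower. The fitted log2 fold change had a median of -1.40 over the 10 genes and -0.014 over all genes. By role the median was -3.05 for the T cell-attracting genes, -1.42 for the inflammatory genes and -0.38 for the constitutive genes.

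Ccl17, a ligand of Ccr4, was at 37.2 and 25.3 CPM in KO with LPS, against 570.5 and 192 CPM in WT with LPS. Both KO libraries were far below both WT libraries, and the WT libraries differed 2.97-fold from each other. The mean was 31.2 ± 8.42 CPM in KO with LPS and 381 ± 268 CPM in WT with LPS (SD, n = 2 each), with a log2 fold change of -3.61 ± 0.54 (SE; edgeR adjusted p = 0.0412). The call was lost with only the 4 LPS libraries in the fit and without any single KO library, or either WT library at steady state, although without 1 library the log2 fold change stayed between -4.18 and -2.62. Over these and the other settings tried, the adjusted p ranged from 1.42e-09 with DESeq2 to 0.326 with only the LPS libraries.

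Ccl22, the other Ccr4 ligand, was at 1570.0 and 321 CPM in KO with LPS, against 4056 and 11580.2 CPM in WT with LPS. The groups did not overlap, but the KO libraries lay 4.89-fold and the WT libraries 2.85-fold apart. The share of all genes that separate in this way was not counted. Non-overlap between groups of 2 libraries, here and below, is therefore a description only. The log2 fold change was -3.05 ± 0.86 (edgeR adjusted p = 0.135). Without 1 library it lay between -4.61 (without the first KO library with LPS) and -2.09 (without the second WT library with LPS). Ccl22 was called by DESeq2 (adjusted p = 0.000948), by edgeR with no filter (adjusted p = 0.0329) and by edgeR without the first WT library with LPS (log2 -3.62, adjusted p = 0.047). Ccl5, which attracts T cells and other leukocytes, was at 10405 and 21220.2 CPM in KO with LPS, against 25792 and 13298 CPM in WT with LPS. These libraries overlapped, and the log2 fold change was -0.31 ± 0.52 (edgeR adjusted p = 0.833). In WT with LPS, replicate 1 was the higher library for Ccl17 and Ccl5 and replicate 2 for Ccl22.

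Among the inflammatory genes, the 2 neighbours Ccl2 and Ccl7 had the widest gaps between genotypes. Ccl2, the main monocyte attractant, was at 4.63 and 14.4 CPM in KO with LPS, against 501 and 133 CPM in WT with LPS (log2 -5.07 ± 1.01, edgeR adjusted p = 0.0736). Ccl7, which shares the receptor Ccr2, had 0 and 12 reads in KO with LPS, against 360 and 230 reads in WT with LPS, or 0 and 1.84 CPM against 47.6 and 14.2 CPM. The library at 0 allows up to 0.339 CPM (3 reads). Its fitted log2 fold change was -5.17 ± 1.36 (edgeR adjusted p = 0.119), a value that leans on that library. Neither gene's groups overlapped, and neither passed the edgeR test. DESeq2 called Ccl2 (adjusted p = 1.32e-07) and Ccl7 (adjusted p = 0.000402), as did edgeR with no filter (adjusted p = 0.00371 and 0.0146). Ccl2 was also called without the first WT library with LPS (log2 -3.84, edgeR adjusted p = 0.0452) and without the second (log2 -5.74, edgeR adjusted p = 0.0356), and it lay at -6.11 without the second KO library with LPS. Ccl7 lay between -11.47 without the second KO library with LPS, which leaves the library at 0, and -4.06 without the first.

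Ccl3 and Ccl4, which attract monocytes and T cells, showed a smaller gap. Ccl3 was at 55.0 and 66.0 CPM in KO with LPS, against 234 and 90.2 CPM in WT with LPS (log2 -1.42 ± 0.43, edgeR adjusted p = 0.153). DESeq2 called Ccl3 (adjusted p = 0.0405). It was called by edgeR without the second WT library with LPS (log2 -1.95, adjusted p = 0.0308) and lay at -0.58 without the first. Ccl4 was at 10.3 and 11.5 CPM in KO with LPS, against 27.9 and 21.4 CPM in WT with LPS (log2 -1.18 ± 0.42, edgeR adjusted p = 0.213). In both genes the WT libraries lay above the KO libraries without overlap. Ccl12, the third Ccr2 ligand, had 0 and 1 reads in KO with LPS and 0 and 5 reads in WT with LPS, too few for a fold.

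The constitutive genes, whose products bind Ccr1 in the mouse, did not separate the genotypes with LPS. Ccl6 was at 470.2 and 238 CPM in KO with LPS, against 520.2 and 204 CPM in WT with LPS (log2 -0.03 ± 0.52, edgeR adjusted p = 0.986). Ccl9 was at 296.5 and 235 CPM in KO with LPS, against 716.5 and 166 CPM in WT with LPS (log2 -0.73 ± 0.62, edgeR adjusted p = 0.621). The WT libraries enclosed the KO libraries in both genes.

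**Figure D3:**
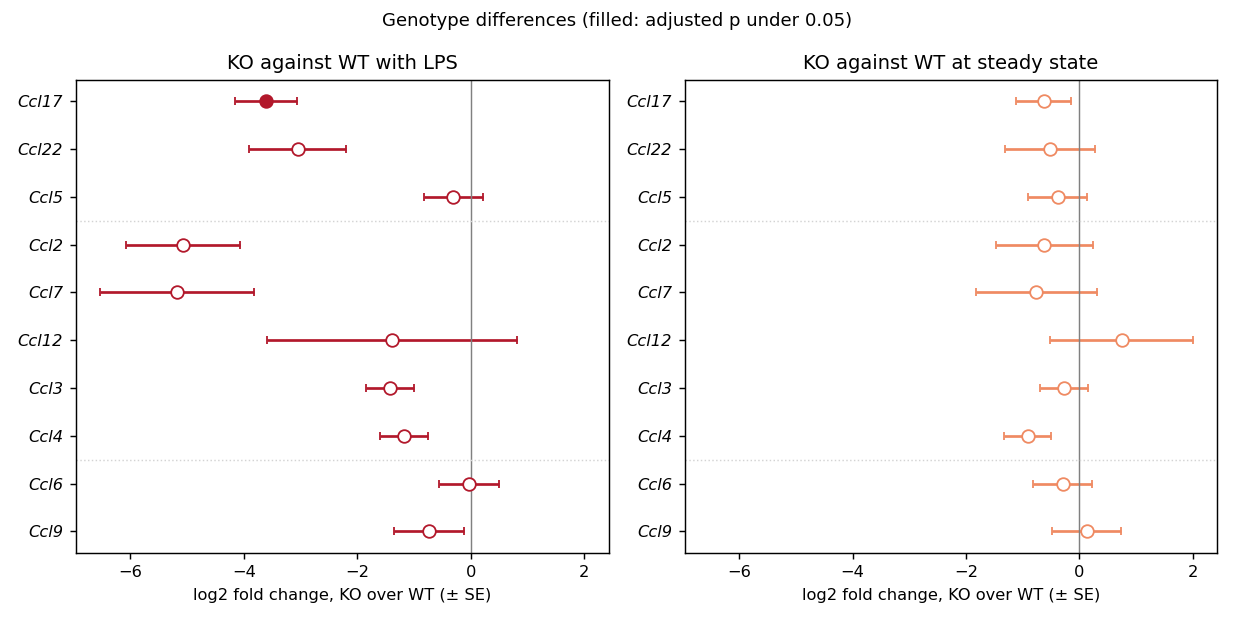
Log2 fold change of KO over WT (x axis) for each gene (y axis), with LPS in the left panel and at steady state in the right panel. Points are edgeR estimates, bars their SE, and a filled point marks an adjusted p under 0.05. With LPS the T cell-attracting Ccl17 (-3.61) and Ccl22 (-3.05) and the inflammatory Ccl2 (-5.07) and Ccl7 (-5.17) lie farthest from 0, only Ccl17 is filled, and the Ccl12 point with LPS rests on at most 5 reads in a library.

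Other cells' markers were measured beside these differences. The sum of the 12 dendritic cell identity genes is given above, and edgeR called 0 of them between genotypes with LPS, with a median log2 fold change of -2.17. Of 12 macrophage genes, the lipid carrier gene Apoe was higher in KO with LPS (log2 3.82 ± 0.57, edgeR adjusted p = 0.0412) and 0 were lower. Their summed level was 4783 and 4608 CPM in KO with LPS, against 2428 and 1592 CPM in WT with LPS. T and NK cells are also known makers of Ccl5, and their 10 markers summed to 2.94 and 24.8 CPM in KO with LPS and 5.03 and 1.42 CPM in WT with LPS. Of the 24.8 CPM, 24.2 CPM came from Lat alone, and the defining genes Cd3d, Cd3e and Cd3g were at no more than 0.132 CPM in any LPS library. Markers of neutrophils summed to between 19.1 and 38.9 CPM in the LPS libraries, those of B cells to at most 5.45 CPM, those of mast cells and basophils to at most 0.742 CPM and those of eosinophils to at most 9.52 CPM. The part of the T and NK cell markers in the level of Ccl5, and of the dendritic cell and macrophage markers in the differences of Ccl17, Ccl22, Ccl2 and Ccl7 was not tested.

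At steady state no CC chemokine was called between genotypes. The edgeR test called 0% of genes higher and 0% lower in KO, or 0 of 12442, while 327 genes had an unadjusted p under 0.05 and DESeq2 called 27 genes and 0 of the 10 members. The median log2 fold change was -0.45 over the 10 genes and -0.005 over all genes. The adjusted p was 1 for each member, and the smallest unadjusted p was 0.0622, for Ccl4 (log2 -0.91 ± 0.42), at 5.12 and 10.1 CPM in KO against 17.7 and 10.9 CPM in WT.

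Ccl17 was at 204 and 197 CPM in KO at steady state, against 349.6 and 270.1 CPM in WT at steady state (log2 -0.63 ± 0.49). Ccl22 was at 4202 and 4546 CPM in KO, against 4466 and 8060.3 CPM in WT (log2 -0.52 ± 0.80). Ccl5 was at 2331 and 2218 CPM in KO, against 2658 and 3277 CPM in WT (log2 -0.38 ± 0.52). The Ccl17 and Ccl5 libraries did not overlap between genotypes and those of Ccl22 did. With 2 libraries in each group, and no such share counted over all genes, that separation is a description only.

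Ccl2 (log2 -0.62 ± 0.85), Ccl7 (-0.76 ± 1.07), Ccl12 (0.75 ± 1.26) and Ccl3 (-0.27 ± 0.42) had libraries that overlapped between genotypes at steady state. In KO at steady state the 2 libraries stood apart for 3 of them, with Ccl2 at 13.6 and 58.3 CPM, Ccl7 at 2.87 and 14.1 CPM and Ccl12 at 4 and 26 reads. In WT at steady state Ccl2 was at 65.2 and 45.0 CPM, Ccl7 at 18.2 and 10.6 CPM and Ccl12 at 14 and 3 reads. Ccl6 had 2677 and 1954 CPM in KO, against 2889 and 2796 CPM in WT (log2 -0.30 ± 0.52), without overlap. Ccl9 had 1039.9 and 838 CPM in KO, against 1021 and 697 CPM in WT (log2 0.13 ± 0.61), with overlap.

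The second WT library at steady state had more of several other cell types' markers than the first. Its neutrophil markers summed to 257 CPM against 29.1 CPM in the first, its mast cell and basophil markers to 89.4 against 2.70 CPM and its B cell markers to 30.0 against 4.64 CPM. Its Ccl22 level was 8060.3 CPM, against 4466 CPM in the first, and its Ccl6 and Ccl9 levels were not above those of the first. Without that library the log2 fold change of Ccl22 between genotypes at steady state was -0.04, against -0.52 with it. The part of these markers in the level of Ccl22 was not tested.

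In KO cells, LPS treatment went with 1 gene higher and 2 lower among the 10. The edgeR test called 5.3% of all genes higher and 6.46% lower with LPS in KO. Ccl5 was higher, by 6.95-fold, while Ccl17 was 6.41-fold lower and Ccl6 6.54-fold lower. The median log2 fold change was -2.07 over the 10 genes and -0.023 over all genes, and by role -2.21 for the T cell-attracting, -1.93 for the inflammatory and -2.27 for the constitutive genes. These medians hide both directions, with 1 up and 2 down among the T cell-attracting and 2 up and 3 down among the inflammatory genes.

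Ccl5 was at 10405 and 21220.2 CPM in KO with LPS, against 2331 and 2218 CPM in KO at steady state (log2 2.80 ± 0.56, edgeR adjusted p = 0.0243). Ccl17 was at 37.2 and 25.3 CPM with LPS, against 204 and 197 CPM at steady state (log2 -2.68 ± 0.52, edgeR adjusted p = 0.0225). Ccl6 was at 470.2 and 238 CPM with LPS, against 2677 and 1954 CPM at steady state (log2 -2.71 ± 0.56, edgeR adjusted p = 0.0264). None of these groups overlapped. Leaving out a single library, KO of either treatment or WT at steady state, lost the calls of Ccl17 (log2 between -2.99 and -2.45) and Ccl6 (between -3.28 and -2.32). The call of Ccl5 (between 2.17 and 3.22) was lost without any 1 of the 4 steady-state libraries and without the second KO library with LPS.

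Of the 7 genes not called, Ccl22 stood at 1570.0 and 321 CPM in KO with LPS, against 4202 and 4546 CPM in KO at steady state (log2 -2.21 ± 0.83, edgeR adjusted p = 0.117). Ccl9 stood at 296.5 and 235 CPM with LPS, against 1039.9 and 838 CPM at steady state (log2 -1.82 ± 0.63, edgeR adjusted p = 0.0996). Ccl3 stood at 55.0 and 66.0 CPM with LPS, against 24.6 and 28.2 CPM at steady state (log2 1.20 ± 0.43, edgeR adjusted p = 0.107). Each of these groups was free of overlap without passing the edgeR test. DESeq2 called Ccl22 (adjusted p = 0.0139) and Ccl9 (adjusted p = 0.0185). With only the KO libraries in the fit, edgeR called Ccl3 (adjusted p = 0.0259) and Ccl9 (adjusted p = 0.0208). With no filter edgeR called Ccl9 (adjusted p = 0.0376). Without either WT library with LPS, edgeR called Ccl3 (adjusted p = 0.0114 and 0.0111) and Ccl9 (adjusted p = 0.00775 and 0.008). Ccl2 overlapped, at 4.63 and 14.4 CPM with LPS against 13.6 and 58.3 CPM at steady state (log2 -1.93 ± 0.90). Ccl7 (log2 -3.31 ± 1.32) and Ccl4 (0.52 ± 0.42) gave adjusted p values of 0.133 and 0.41 by edgeR. DESeq2 called Ccl7 (adjusted p = 0.0272), as did edgeR with no filter (adjusted p = 0.0439). Ccl12 had 0 and 1 reads with LPS against 4 and 26 at steady state.

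Markers of cell identity also moved with LPS in KO. Of the 12 dendritic cell identity genes 7 were lower and 0 higher, and of the 12 macrophage genes 7 were lower and 0 higher. The macrophage sum was 4783 and 4608 CPM in KO with LPS, against 11081 and 10891 CPM in KO at steady state. Most of that fall came from Apoe, at 947 and 372 CPM with LPS against 6597 and 6303 CPM at steady state. Emr1 of the same list went the other way without a call, at 1787 and 2751 CPM against 642 and 992 CPM. Its log2 fold change was 1.47 ± 0.43 (edgeR adjusted p = 0.0667), and that of Fcgr1 was 1.16. Of 7 eosinophil genes 5 were tested and 3 were lower, Siglecf (listed as Siglec5; log2 -6.51 ± 0.98, edgeR adjusted p = 0.0113), Il5ra and Ear1. Siglecf was at 0.565 and 3.37 CPM in KO with LPS, against 154 and 188 CPM in KO at steady state, while the granule gene Epx had 0 reads in both groups. Of 7 neutrophil genes tested, Camp was higher (log2 5.78 ± 1.12, edgeR adjusted p = 0.0221) and 0 were lower. The part of these markers in the lower levels of Ccl17 and Ccl6 was not tested.

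In WT cells, Ccl5 and Ccl3 were higher with LPS and Ccl6 was lower, while Ccl17 and Ccl22 were not called. The edgeR test called 3% of all genes higher and 3.49% lower with LPS in WT. The median log2 fold change was 0.55 over the 10 genes and 0.0019 over all genes, and by role 0.32 for the T cell-attracting, 1.10 for the inflammatory and -1.97 for the constitutive genes.

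Ccl5 was at 25792 and 13298 CPM in WT with LPS, against 2658 and 3277 CPM in WT at steady state (log2 2.72 ± 0.56, edgeR adjusted p = 0.0337). Ccl3 was at 234 and 90.2 CPM with LPS, against 35.4 and 28.0 CPM at steady state (log2 2.35 ± 0.44, edgeR adjusted p = 0.0261). Ccl6 was at 520.2 and 204 CPM with LPS, against 2889 and 2796 CPM at steady state (log2 -2.97 ± 0.56, edgeR adjusted p = 0.0269). The libraries did not overlap in any of the 3. Each of these calls was lost with only the 4 WT libraries in the fit and without any 1 of the 4 steady-state libraries, with log2 fold changes between 2.17 and 3.12 for Ccl5, 1.52 and 2.88 for Ccl3 and -3.79 and -2.45 for Ccl6.

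In WT cells the Ccr4 ligands differed more between the LPS libraries than between LPS and steady state. Ccl17 was at 570.5 and 192 CPM in WT with LPS, against 349.6 and 270.1 CPM in WT at steady state (log2 0.30 ± 0.49, edgeR adjusted p = 0.717). Ccl22 was at 4056 and 11580.2 CPM with LPS, against 4466 and 8060.3 CPM at steady state (log2 0.32 ± 0.79, edgeR adjusted p = 0.82). For each gene the 2 LPS libraries lay on either side of both steady-state libraries. Without the first LPS library the log2 fold change of Ccl17 was -0.68, and without the second that of Ccl22 was -0.63.

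Ccl2 was at 501 and 133 CPM in WT with LPS, against 65.2 and 45.0 CPM in WT at steady state (log2 2.52 ± 0.89, edgeR adjusted p = 0.128). DESeq2 called it (adjusted p = 0.0164), and so did edgeR with no filter (adjusted p = 0.0299). It was called without the second LPS library, where its log2 fold change was 3.18 (edgeR adjusted p = 0.0293). Ccl4 (log2 0.78 ± 0.41), Ccl7 (1.10 ± 1.06), Ccl12 (-1.94 ± 1.49) and Ccl9 (-0.96 ± 0.62) did not pass. Ccl9 was at 716.5 and 166 CPM with LPS, against 1021 and 697 CPM at steady state, and its first LPS library lay inside the steady-state range. It was called lower without that library (log2 -2.37, edgeR adjusted p = 0.0238). Of the marker lists, 1 of 12 dendritic cell identity genes (Cd209a) and 7 of 12 macrophage genes were lower with LPS in WT and 0 were higher. Siglecf (log2 -4.56 ± 0.89, edgeR adjusted p = 0.0296) of the eosinophil list and Cxcr2 (log2 -6.26 ± 1.34, edgeR adjusted p = 0.0477) of the neutrophil list were also lower. Cxcr2 was at 0 and 0.0619 CPM with LPS against 1.16 and 6.77 CPM at steady state. Its fold thus rests on low counts and mostly on the second steady-state library. The macrophage sum was 2428 and 1592 CPM in WT with LPS, against 9712 and 6420 CPM in WT at steady state. Most of that fall came from Apoe, at 44.4 and 48.9 CPM with LPS against 5776 and 3318.5 CPM at steady state. Emr1 went the other way without a call, at 1509 and 843 CPM against 509 and 416 CPM. The part of these markers in the lower level of Ccl6 was not tested.

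**Figure D4:**
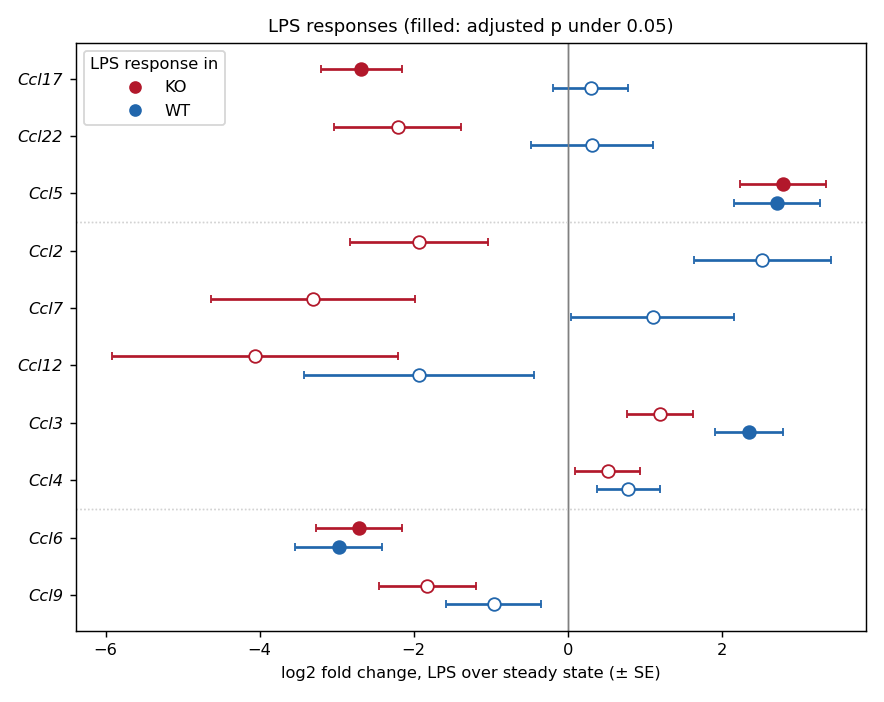
Log2 fold change of LPS over steady state (x axis) for each gene (y axis) in KO (upper point) and WT (lower point). Points are edgeR estimates, bars their SE, and a filled point marks an adjusted p under 0.05. Ccl5 (2.80 in KO, 2.72 in WT) and Ccl6 (-2.71 in KO, -2.97 in WT) have neighbouring points, while Ccl17 (-2.68 in KO, 0.30 in WT) and Ccl2 (-1.93 in KO, 2.52 in WT) lie on opposite sides of 0. Ccl12 rests on at most 26 reads in a library.

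The difference of the LPS responses, KO minus WT, was then tested directly. The edgeR test called 0% of genes higher and 0% lower, so 0 of the 10 members, while 797 genes had an unadjusted p under 0.05 and DESeq2 called 110 genes, Ccl17 and Ccl2 among them. The largest estimates were those of Ccl2 (log2 -4.46 ± 1.26, edgeR adjusted p = 0.59), Ccl7 (-4.41 ± 1.70, adjusted p = 0.714) and Ccl17 (-2.98 ± 0.70, adjusted p = 0.532). Ccl22 was at -2.53 ± 1.14 (edgeR adjusted p = 0.809) and Ccl3 at -1.16 ± 0.60 (edgeR adjusted p = 0.86). Ccl5 (0.08 ± 0.74), Ccl6 (0.26 ± 0.74), Ccl4 (-0.27 ± 0.58) and Ccl9 (-0.86 ± 0.87) were within 1 SE of 0. The median was -1.64 over the 10 genes and -0.0063 over all genes. That Ccl17 was called with LPS in KO and not in WT, and Ccl3 in WT and not in KO, is thus not a difference that passed the test. With only the compared groups in the fit, Ccl3 was instead called in KO (edgeR adjusted p = 0.0259) and not in WT (edgeR adjusted p = 0.0917).

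Pairs of genes were compared library by library within groups. In each of the 4 groups the library with more Ccl2 also had more Ccl7, the library with more Ccl3 had more Ccl4, and the library with more Ccl6 had more Ccl9. For Ccl17 and Ccl22 this held in 1 of 4 groups and for Ccl5 and Ccl3 in 2 of 4. How often any 2 genes agree in this way was not counted. Libraries of a group differed over many genes, so such agreement is a description only. Over the 8 libraries, with each gene's log2 CPM centred on its mean, the root mean square distance was 0.645 between Ccl3 and Ccl4, 0.659 between Ccl5 and Ccl3, 0.782 between Ccl6 and Ccl9, 0.909 between Ccl2 and Ccl7 and 0.941 between Ccl17 and Ccl22. Other genes that lie close together were further apart by this measure, with 2.18 between Ccl5 and Ccl9, 2.19 between Ccl7 and Ccl12 and 2.39 between Ccl6 and Ccl3. Low counts weigh on the distance of Ccl7 and Ccl12, since Ccl12 had at most 26 reads in a library. The uncertain split of reads between Ccl3 and Ccl4 bears on theirs. The widest distance, 2.87, was between Ccl5 and Ccl6. These distances describe 8 libraries that share 4 groups, and carry no test.

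Ratios within a library, which need no scaling between libraries, were taken for 5 pairs. In 3 of them the LPS and steady-state ratios did not overlap. How often the ratios of any 2 genes separate in this way was not counted, so this is a description only. Ccl5 stood at 6.63 and 66.0 times the CPM of Ccl22 in KO with LPS and at 6.36 and 1.15 times in WT with LPS, against 0.555 and 0.488 times in KO and 0.595 and 0.407 times in WT at steady state. All 4 LPS libraries thus had more Ccl5 than Ccl22 reads, and all 4 steady-state libraries fewer. Ccl2 stood at 7.83 times the CPM of Ccl7 in the one KO library with LPS that had Ccl7 reads and at 10.5 and 9.34 times in WT with LPS, against 4.76 and 4.14 times in KO and 3.59 and 4.26 times in WT at steady state. Ccl6 stood at 1.59 and 1.01 times the CPM of Ccl9 in KO with LPS and at 0.726 and 1.23 times in WT with LPS, against 2.57 and 2.33 times in KO and 2.83 and 4.01 times in WT at steady state. Ccl2 over Ccl7 was higher, and Ccl6 over Ccl9 lower, in each LPS library with a value than in each steady-state library. Ccl17 stood at 0.0237 and 0.0786 times the CPM of Ccl22 in KO with LPS, 0.141 and 0.0166 in WT with LPS, 0.0485 and 0.0433 in KO at steady state and 0.0783 and 0.0335 in WT at steady state, with overlap throughout. Ccl4 stood at 0.187 and 0.174 times the CPM of Ccl3 in KO with LPS and 0.119 and 0.237 in WT with LPS, against 0.208 and 0.358 in KO and 0.500 and 0.390 in WT at steady state.

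For the member of each role with the highest mean CPM over the 8 libraries, the 3 genes with the most similar pattern over the 8 libraries were found by the same distance. Ccl5 was nearest to the class I histocompatibility genes H2-Q5 (0.199) and H2-T10 (0.232) and to the carbonic anhydrase gene Car13 (0.211), where the median distance over all genes was 1.48. Ccl6 was nearest to Anxa3 (0.332), Myzap (0.333) and Il17re (0.34), with a median of 1.58. Of these Myzap and Il17re were at no more than 2.51 CPM in any library. Ccl2 was nearest to Fhod3 (0.742), Ppl (0.816) and Wwtr1 (0.842), with a median of 2.05. The mean of Ccl2 is carried by WT with LPS, and in KO with LPS Ccl3 was the highest inflammatory gene. The 3 genes nearest to Ccl2 were at no more than 5.69 CPM, so low counts weigh on that likeness.

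The other genes of the CC system were read from lists of known members. Of 14 other CC ligands, 2 were abundant enough to test, Ccl24 and Ccl25, and 0 were called in any comparison by edgeR. Ccl11, Ccl20, Ccl21a, Ccl21b, Ccl21c, Ccl26 and Ccl27b had 0 reads in all 8 libraries. Together the 14 summed to between 3.05 and 23.9 CPM in a library, so the 10 genes made up nearly all CC ligand reads.

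Of 15 CC receptor genes 10 were tested. Between genotypes with LPS 1 was lower in KO, Ccr7, the receptor that takes dendritic cells to lymph nodes, at 159 and 106 CPM in KO with LPS against 599 and 992 CPM in WT with LPS (log2 -2.59 ± 0.40, edgeR adjusted p = 0.0439). With LPS against steady state in KO, Ccr4, the receptor of Ccl17 and Ccl22, was higher (log2 3.02 ± 0.51, edgeR adjusted p = 0.0149), as was the atypical receptor gene Ccrl2 (3.70 ± 0.68, adjusted p = 0.0193). Ccr2, the receptor of Ccl2, Ccl7 and Ccl12, was lower (-7.05 ± 0.75, adjusted p = 0.00389), as were Ccr6 (-6.21 ± 1.23) and Ccr7 (-3.93 ± 0.42).

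In WT the same test called Ccr4 (log2 4.22 ± 0.50, edgeR adjusted p = 0.00644) and Ccrl2 (3.99 ± 0.69) higher with LPS and Ccr2 (-8.72 ± 0.82, adjusted p = 0.00441) and Ccr7 (-1.89 ± 0.39) lower. Ccr2 was at 8.81 and 2.14 CPM in KO with LPS and 1.06 and 1.18 CPM in WT with LPS, against 648 and 835 CPM in KO and 637 and 324 CPM in WT at steady state. Ccr4 was at 4.41 and 3.22 CPM in KO with LPS and 14.0 and 14.1 CPM in WT with LPS, against 0.310 and 0.620 CPM in KO and 0.579 and 0.892 CPM in WT at steady state. The LPS libraries thus had little message for the Ccr2 receptor in both genotypes. Ccr1, the receptor of Ccl6 and Ccl9, ranged from 216 to 539.5 CPM over the 8 libraries and was called in no comparison by edgeR.

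Of 13 genes that sense LPS or relay its signal, 0 were called between genotypes with LPS by edgeR. Cd14, which hands LPS to its receptor, was higher with LPS in KO (log2 2.98 ± 0.52, edgeR adjusted p = 0.0164) and in WT (3.50 ± 0.54, edgeR adjusted p = 0.014). The adaptor gene Ticam2 was higher with LPS in KO (1.72 ± 0.26, edgeR adjusted p = 0.0116), and Lbp was lower in WT (-3.01 ± 0.66, edgeR adjusted p = 0.0429) at no more than 2.80 CPM. Tlr4 itself was at 90.8 and 33.7 CPM in KO with LPS, against 54.6 and 52.2 CPM in WT with LPS. Both genotypes thus had Tlr4 message and more Cd14 with LPS.

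Of 6 genes known to act upstream of Ccl17 and Ccl22, 0 were called between genotypes with LPS. Il4ra, the receptor chain for interleukin 4, was closest, at 211 and 220.3 CPM in KO with LPS against 553 and 522 CPM in WT with LPS (log2 -1.32 ± 0.25, edgeR adjusted p = 0.068). It was lower with LPS in KO (-1.16 ± 0.25, edgeR adjusted p = 0.0296), as was Csf2ra, a chain of the GM-CSF receptor (-1.19 ± 0.26, adjusted p = 0.0307). In WT Csf2ra was lower with LPS (-1.35 ± 0.26, edgeR adjusted p = 0.0279) and Il4ra was at -0.37. The transcription factor gene Irf4 was at 146 and 66.9 CPM in KO with LPS and 138 and 239 CPM in WT with LPS, which overlap.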

How the data were processed

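RNA was measured in 8 libraries; per the labels' protocols it was purified with an RNeasy plus kit and made into libraries with TruSeq RNA v2, a kit without strand information. The authors deposited raw whole-number read counts per gene. Per the submitters' processing notes, the build was mm10 and the tools were featureCounts, edgeR 3.6.8, Subread 1.4.3 and TopHat2 2.0.8, listed without roles. The counting of reads that match several genes is not stated there.

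Groups and replicate numbers came from the sample titles. In R 4.3.3, edgeR 4.0.16 kept 12442 of 23420 genes with filterByExpr (minimum count 10, minimum total 15), scaled library sizes with TMM factors and ran two-sided quasi-likelihood F tests with 1 coefficient per group over all 8 libraries (4 residual and 3.40 prior degrees of freedom, biological coefficient of variation 0.340). Benjamini-Hochberg adjustment ran over all genes tested, and a call is an adjusted p under 0.05. SE is the log2 fold change divided by the square root of F. CPM uses the scaled sizes, and CPM per kb divides by the union of GENCODE M21 exons. Distances used log2 CPM with a prior count of 2. A floor of 3 reads is given for libraries at 0. Total counts were 8889752 and 8005151 (KO with LPS), 8488443 and 15495249 (WT with LPS), 12243848 and 10174720 (KO at steady state) and 9855387 and 12536554 (WT at steady state), and no 2 libraries of a group agreed within sampling noise (chi-square per gene 19.1 to 191). The procedure was tested on simulated data with a common spread for all groups, which does not cover the wider spread between LPS libraries seen here.

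All 10 members are named, and genes of the lists are named where called, where among the most abundant, or where a count is small enough to list. Myzap, Il17re, Anxa3, Fhod3, Ppl, Wwtr1, H2-Q5, H2-T10 and Car13 are the 3 nearest genes of each role's most abundant member. The members and lists were chosen with earlier results of these data known. Alternatives were each library left out, a block for the replicate number, DESeq2 1.42.0, RLE factors, a threshold of 0.01, a fit to the compared groups alone, no filter and a filter at 1 CPM in 2 libraries. A crossed block was added after seeing the data. Some results of the CC receptor list are not reported here.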

Additional observations from a re-analysis of the deposited data

How the results depend on the processing

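The number of members called was 1 for KO against WT with LPS, 0 at steady state, 3 for LPS in KO, 3 for LPS in WT and 0 for the difference of responses, and RLE factors or a CPM of at least 1 in 2 libraries changed none of these. KO against WT with LPS gave 4 without a filter, 5 with DESeq2, 0 with only the groups compared, 0 with the replicate block, 2 with the crossed block and 0 at an adjusted p under 0.01. LPS in KO gave 5 without a filter, 6 with DESeq2, 5 with only the groups compared and 0 at 0.01. LPS in WT gave 4 without a filter, 4 with DESeq2, 0 with only the groups compared and 0 at 0.01. The difference of responses gave 2 with DESeq2. Leaving out 1 library gave 0 to 3 for KO against WT with LPS, 0 to 0 at steady state, 0 to 5 for LPS in KO, 0 to 4 for LPS in WT and 0 to 0 for the difference. Some calls were lost without libraries of groups not compared, and some gained. The cause of these changes was not tested.

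Replicate numbers were not taken as pairs: only 2 numbers exist and the labels tie them to nothing. Deviations of same-numbered libraries correlated at -0.599 between the LPS groups and at 0.113 to 0.26 between the 3 other pairs of groups that were compared. The replicate block moved the count of all genes called from 96 to 8 in KO against WT with LPS, from 1463 to 776 for LPS in KO and from 807 to 465 for LPS in WT, with 2 members called in each of the last 2. With it Ccl17 lost its call between genotypes with LPS (log2 -3.51, edgeR adjusted p = 0.0764), and Ccl5 lost its calls with LPS in KO (edgeR adjusted p = 0.0521) and in WT (edgeR adjusted p = 0.0679). Exchanging the KO LPS numbers gave 273, 2484 and 1285 genes. With that crossed block Ccl22 was called between genotypes with LPS (edgeR adjusted p = 0.0435) and with LPS in KO (edgeR adjusted p = 0.0222). The exchange was chosen after seeing the data, so the calls and counts it gave lend no support. Without a filter all-gene counts were 538, 2223 and 1497, with DESeq2 1044, 2795 and 1965, and with only the groups compared 0, 2316 and 229.

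The log2 fold change of Ccl6 between genotypes with LPS turned to 0.01 with the replicate block and 0.05 with the crossed block. Without 1 library the direction turned for Ccl6 (-0.60 to 0.79), Ccl5 (-0.93 to 0.24), Ccl9 (-1.43 to 0.68) and Ccl12 (-4.22 to 2.67) between genotypes with LPS. It also turned for Ccl2 (-2.02 to 0.08), Ccl9 (-0.13 to 0.42) and Ccl12 (-1.29 to 2.47) between genotypes at steady state. With LPS in WT it turned for Ccl17 (-0.68 to 0.88) and Ccl22 (-0.63 to 0.89). In the difference of responses it turned for Ccl4 (-0.68 to 0.31), Ccl5 (-0.56 to 0.63), Ccl6 (-0.31 to 1.08), Ccl9 (-1.56 to 0.55) and Ccl12 (-4.97 to 1.92). Depth limits Ccl12, at most 26 reads, and Ccl7 in KO with LPS. The interaction could not be fitted with fewer groups.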
